A study of Rattus norvegicus with 15 samples.

Results

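The genes of the proteasome were examined in the gastrocnemius muscle of rats given a low-protein diet after weaning. Members were all probe sets of the array whose only gene symbol starts with Psma, Psmb, Psmc, Psmd, Psme, Psmf or Psmg. This gave 60 probe sets of 46 genes, of 31042 probe sets and 14217 singly named genes measured. Of the 46 genes, 44 encode subunits, activators, an inhibitor or assembly factors, and Psmc3ip and Psme3ip1 carry the prefix but encode no part of the proteasome. A further 6 probe sets, which carry Psma3, Psmb6 or Psme3 together with other genes, were left out, so that neither Psmb6 nor Psme3 was measured on its own.

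The proteasome degrades proteins that have been marked with ubiquitin. Its 20S core is a barrel of alpha and beta subunits with the proteolytic sites inside. The 19S particle caps the barrel, with a base that holds a ring of ATPases which unfold the substrate and thread it inward, and a lid that removes the ubiquitin chain. Other caps bind the same core, among them the PA28 ring of Psme1 and Psme2 and the single large protein PA200, encoded by Psme4. Under interferon, Psmb8, Psmb9 and Psmb10 replace the constitutive catalytic subunits and form the immunoproteasome, which generates peptides for antigen presentation. In skeletal muscle the ubiquitin-proteasome pathway carries out much of the breakdown of myofibrillar protein, and its genes are known to respond to fasting and disuse.

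Male Wistar rats, bought at 3.5 weeks of age, were fed for 4 weeks on 15% casein (CN, 4 arrays) or, at matched calories, on 8% casein (LP, 4 arrays). The rebound groups CN-R (3 arrays used here) and LP-R (4 arrays) had started on the 15% and the 8% casein diet in the same way and were sampled on day 84. The published methods have LP-R rats returned to the control diet after the restriction, whereas the sample labels have both rebound groups stay on their earlier diets. All rats were fasted for 16 h before sampling, so every group, controls included, was a fasted group, and rats near the average body weight of their group had been chosen for the arrays. The CN-R array numbered 4 is a control by its title, while its treatment field says protein restriction. It was kept with the controls, and values are also given with it placed otherwise where a call depends on it. For the arrays the published methods mention a single individual per treatment group, whereas the labels number the arrays as biological replicates without naming the animals. Whether the arrays of a group came from different rats was thus not settled. SDs, SEs and p-values measure the spread between these arrays.

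Expression was given as log2 signals of the FARMS summarization, which draws probe sets with little informative variation to a nearly constant value. A probe set is called varying here when its SD over the arrays of a comparison exceeded 0.01. The arrays of 1 month and of 3 months had been summarized apart, and of 30 proteasome probe sets that were constant at both ages, 29 had constants more than 0.01 apart, the other one, Psmd11 1380252_at, differing by 0.0078. Thus levels are not compared between ages. The 11 muscle fiber markers measured averaged 13.5 on the log2 scale in CN and in LP, close to the top of the scale. Proteasome probe sets were mostly bright: their mean log2 signals at 1 month ran from 5.89 to 11.9 with a median of 9.77, and 54 of 60 lay above the array median of 6.49. At 1 month 26 of 60 proteasome probe sets varied, against 12.8% of all probe sets. At 3 months 12 of 60 varied, against 9.99%.

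After 4 weeks of protein restriction, 8 proteasome probe sets of 5 genes were called lower in LP than in CN by rank products, the test named in the study's methods, which estimates the proportion of false positives (pfp) and calls a probe set at a pfp of 0.05 or less. They comprised the 3 probe sets of Psme4, 2 of the 3 of Psmd11, and 1 each of Psmd7, Psmd4 and Psmc6. Psmb9, a catalytic subunit of the immunoproteasome, was the only member called higher, and 51 probe sets were not called. The 8 of 60 called lower stand beside 1.58% of all probe sets called lower, and the 1 of 60 called higher beside 1.68% called higher. Rank products permutes values across all probe sets and so treats them as varying alike. With the 3974 varying probe sets alone, none of the members was called in either direction. The linear model of limma, which uses each probe set's own spread, called no member and no probe set at all. Its smallest Benjamini-Hochberg adjusted p was 0.0742 over all probe sets and 0.525 over members. An unadjusted limma p under 0.05 was found for 11 of 60 members, against 7.54% of all probe sets. Among these 11 were the nearly constant probe sets of Psmd1, Psmd10 and Psmg2, and those of Psmb8 and Psmb9, which were higher in LP.

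**Figure D1:**
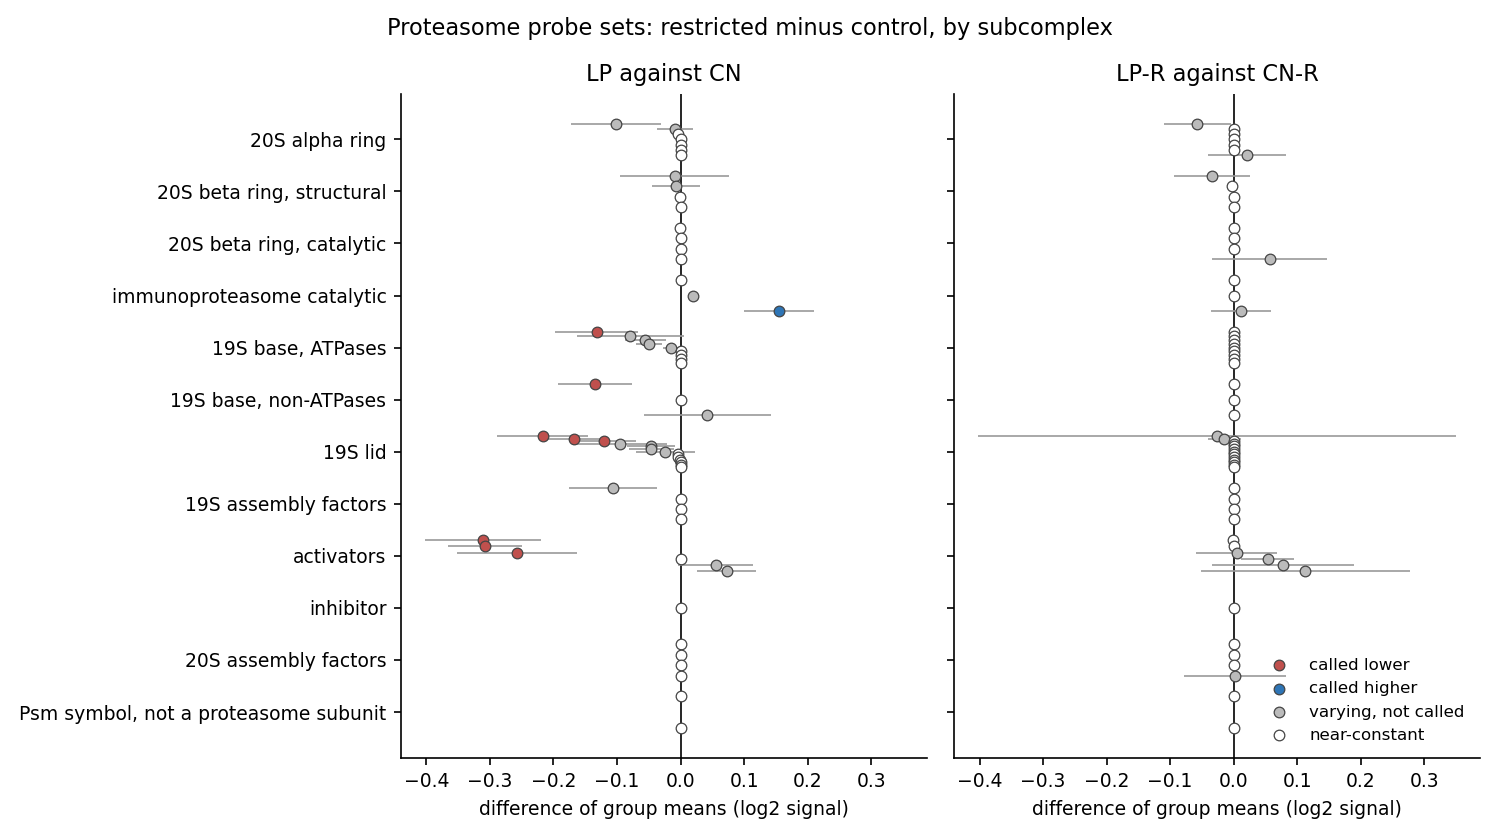
Difference of group means (log2 signal, x axis) for each of the 60 proteasome probe sets, sorted by subcomplex (y axis), with LP minus CN on the left and LP-R minus CN-R on the right. Bars are limma standard errors, drawn for varying probe sets. Red points were called lower, blue points called higher, grey points varied without a call and white points were nearly constant. On the left the 8 red points lie in the 19S base, the 19S lid and the activators, and on the right no point is coloured.

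Most of the differences lay outside the catalytic core. Among the 15 probe sets of the 13 constitutive 20S genes, 4 varied at 1 month. All 4 had a lower mean in LP and none was called. Of the 25 probe sets of the 17 genes of the 19S base and lid, 14 varied. Of these, 13 had a lower mean in LP, and 5 were called lower. Of the 6 activator probe sets 5 varied, with the 3 of Psme4 called lower and those of Psme1 and Psme2 not called. The difference between the subcomplexes was not tested. Over all members, 21 of the 26 varying probe sets had a lower mean in LP, against 42.4% of all varying probe sets, and their median difference was -0.053 on the log2 scale, against 0.017 for all varying probe sets. Without CN array 4 this median was -0.025.

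Psme4, which encodes the ATP-independent activator PA200, showed the lowest values of LP relative to CN among all members. Probe set 1368817_at gave log2 signals of 11.01, 10.81, 10.86 and 10.98 in CN and 10.51, 10.66, 10.59 and 10.67 in LP. Every LP array lay below every CN array. The means of 10.91 ± 0.094 (SD, n = 4) and 10.61 ± 0.076 (SD, n = 4) differed by -0.31 ± 0.059 (SE), a 1.24-fold lower signal in LP (pfp = 0.0019; limma adjusted p = 0.525; two-sided exact permutation p = 0.0286, the smallest possible with 4 against 4 arrays).

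The other Psme4 probe sets pointed the same way with a wider spread. Probe set 1387345_at read 10.25, 9.96, 10.12 and 10.28 in CN and 9.69, 9.90, 9.80 and 9.97 in LP. Only the highest LP array, number 4, reached above the lowest CN array, number 2, and the difference was -0.31 ± 0.091 (SE, pfp = 0.0025, exact permutation p = 0.0571). Probe set 1368818_at read 10.78, 10.54, 10.63 and 10.81 in CN and 10.30, 10.59, 10.31 and 10.52 in LP. Here LP array 2 lay above CN array 2, and the difference was -0.26 ± 0.095 (SE, pfp = 0.0076, exact permutation p = 0.0571). The 3 probe sets report the same gene in the same RNA and are not independent of each other. Calls for 1368817_at and 1387345_at remained when any single array was left out, whereas 1368818_at was not called without CN 1 or CN 4.

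The window around the start site of Psme4, of Psmd11 and Psmd7 from the lid, and of Psmb9 is shown because these genes carried the largest or most separate differences at 1 month, in either direction. Sequences are from RefSeq (build GRCr8), run 5′ to 3′ along the gene from 250 bases before to 50 bases after the start, and matched 40 of the 44 proteasome genes. Capitals mark matches on either strand to 5 motifs. They are TGACNNNGC (core of the antioxidant response element), CCAAT (NF-Y box) and TTCNNNGAA (STAT site), and, by name alone, the NRF1 site and the interferon-stimulated response element. NRF1 here means the nuclear respiratory factor and not the transcription factor Nfe2l1.
Psme4, chr14:108706393-108706692 (plus strand): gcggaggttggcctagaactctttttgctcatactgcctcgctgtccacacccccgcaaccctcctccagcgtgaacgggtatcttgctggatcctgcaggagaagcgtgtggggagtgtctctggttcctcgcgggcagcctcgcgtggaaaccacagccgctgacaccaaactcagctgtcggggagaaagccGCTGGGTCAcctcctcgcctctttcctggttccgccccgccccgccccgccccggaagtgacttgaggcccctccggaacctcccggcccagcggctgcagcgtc
Psmd11, chr10:65932093-65932392 (plus strand): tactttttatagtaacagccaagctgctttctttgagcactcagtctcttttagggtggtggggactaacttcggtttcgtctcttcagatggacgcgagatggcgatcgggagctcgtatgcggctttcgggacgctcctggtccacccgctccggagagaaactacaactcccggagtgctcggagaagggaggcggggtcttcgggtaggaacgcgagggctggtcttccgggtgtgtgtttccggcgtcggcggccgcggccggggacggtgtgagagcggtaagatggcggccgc
Psmd7, chr19:52411267-52411566 (minus strand): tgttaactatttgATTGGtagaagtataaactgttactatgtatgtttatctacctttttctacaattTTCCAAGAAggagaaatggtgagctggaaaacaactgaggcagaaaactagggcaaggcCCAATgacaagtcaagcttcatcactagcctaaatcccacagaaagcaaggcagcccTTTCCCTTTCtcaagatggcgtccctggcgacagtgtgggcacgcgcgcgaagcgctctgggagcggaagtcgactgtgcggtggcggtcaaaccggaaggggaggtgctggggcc
Psmb9, chr20:4668750-4669049 (plus strand): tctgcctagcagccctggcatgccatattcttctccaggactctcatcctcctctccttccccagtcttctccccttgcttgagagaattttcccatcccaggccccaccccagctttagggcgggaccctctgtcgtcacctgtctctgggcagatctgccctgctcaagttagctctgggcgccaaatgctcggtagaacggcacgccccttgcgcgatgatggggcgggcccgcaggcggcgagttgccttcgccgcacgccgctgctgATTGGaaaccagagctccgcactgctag

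Psme4 held the only antioxidant response element core among the 5 genes called lower, beginning at position -55 from the start on the reverse strand. That motif was present in 7 of 35 windows of proteasome genes outside PA28 and the immunoproteasome, and in 12.2% of all 27457 gene windows. The Psmd11 window held none of the 5 motifs. The Psmd7 window held 2 NF-Y boxes, a STAT site and an interferon-stimulated response element match, and the Psmb9 window held an NF-Y box. The NF-Y box was found in 9 of the 12 windows of 20S core genes, in 5 of 14 of 19S base and lid genes and in 37.7% of all windows. The interferon-stimulated response element was found in 3 of the 5 immunoproteasome and PA28 windows, in 4 of the 35 others and in 3.77% of all windows. A match describes these letters and does not show that a factor binds there.

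In the 19S lid, 7 of 13 probe sets varied at 1 month and all 7 had a lower mean in LP, with differences from -0.22 to -0.024. Psmd11, a scaffold subunit of the lid, had log2 signals of 11.21, 11.10, 11.23 and 11.35 in CN and 10.93, 11.04, 10.92 and 11.14 in LP on probe set 1374712_at. LP array 4 was the only one to exceed the lowest CN array. The difference was -0.22 ± 0.072 (SE, 1.16-fold lower, pfp = 0.010, exact permutation p = 0.0571).

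On another varying probe set of the gene, 1376069_at, CN read 10.05, 10.03, 10.0004 and 10.21 and LP read 9.91, 9.96, 9.91 and 10.02. CN array 4 stood above the rest, LP array 4 overlapped CN array 3, and the difference was -0.12 ± 0.051 (SE, pfp = 0.032). The third, 1380252_at, was constant at 5.89. Without CN 1, CN 3 or CN 4 the call of 1374712_at was lost (differences from -0.26 to -0.17 over all single omissions), and the call of 1376069_at was lost when any of the 4 CN arrays was left out, its difference being -0.075 without CN 4.

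Psmd7, the partner of the deubiquitinase Psmd14 in the lid, read 9.998, 9.973, 10.07 and 10.16 in CN and 9.83, 9.90, 9.86 and 9.93 in LP on probe set 1379322_at. Again every LP array lay below every CN array. The difference was -0.17 ± 0.046 (SE, 1.12-fold lower, pfp = 0.012, exact permutation p = 0.0286), and the call was lost without CN 1, CN 3 or CN 4. Probe set 1389245_at of the same gene did not vary. Varying probe sets of Psmd3, Psmd8, Psmd12 and Psmd14 differed by -0.047, -0.095, -0.046 and -0.024, each with overlapping groups and no call, and Psmd6 and Psmd13 did not vary.

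**Figure D2:**
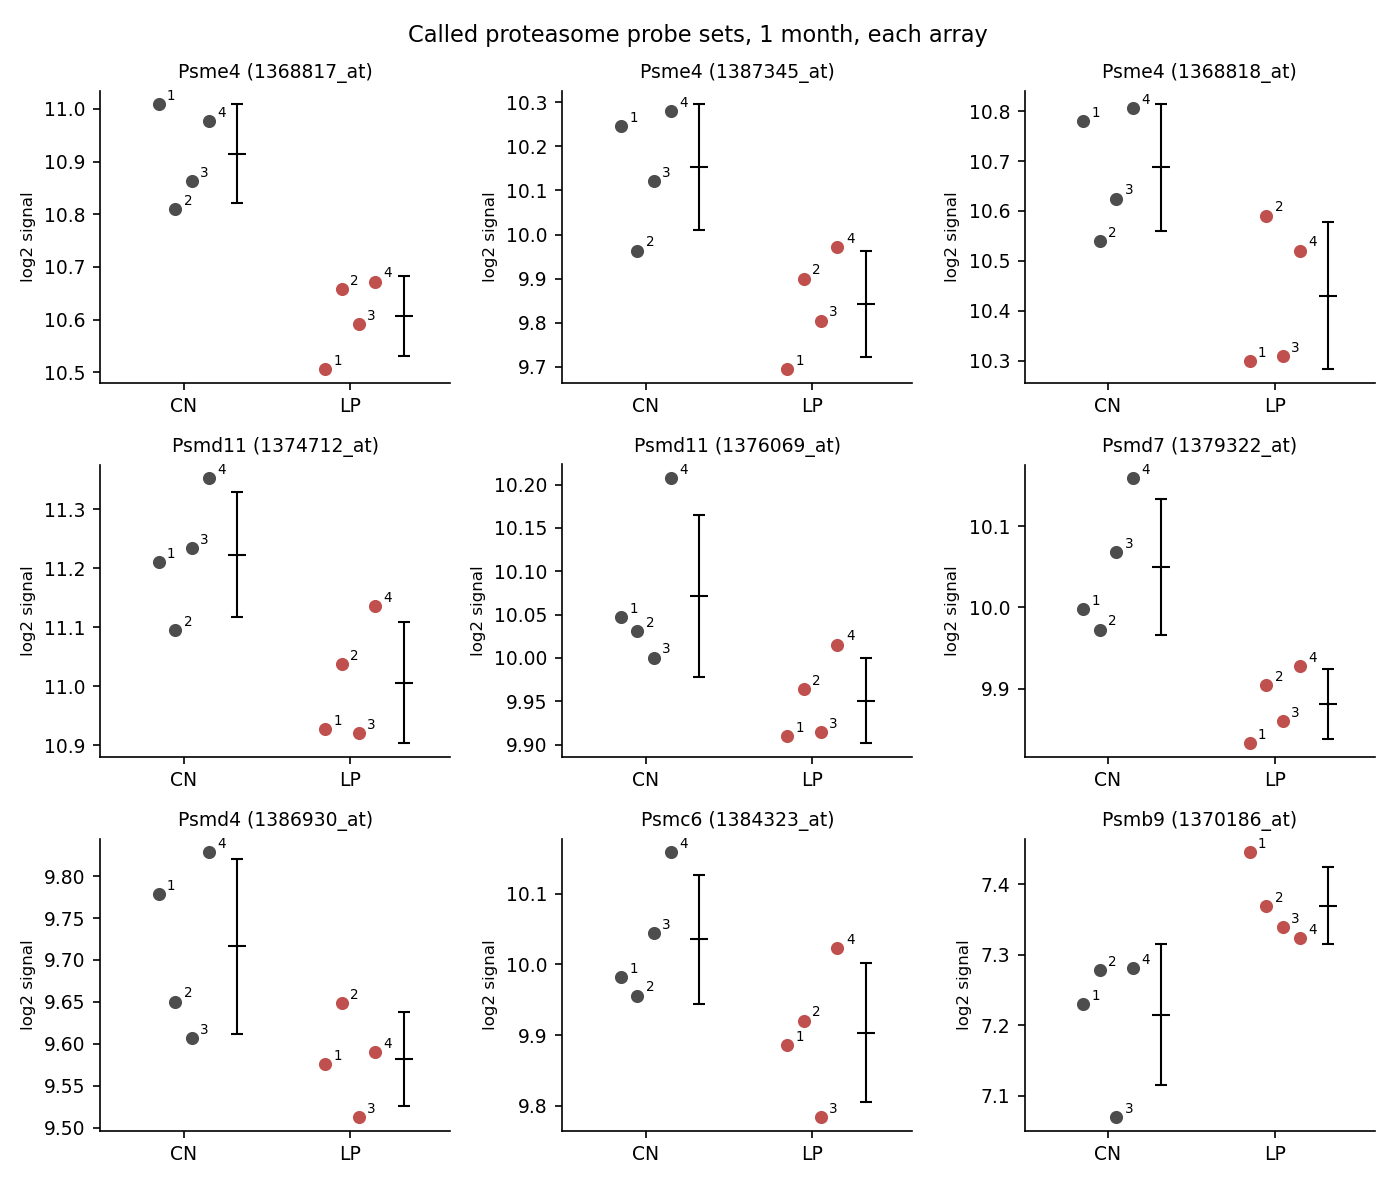
Log2 signal (y axis) on each CN and LP array (points, numbered by array) for the 8 probe sets called lower and for Psmb9, called higher. The bar beside each group is its mean ± SD. The y axes differ between panels and do not start at 0. Groups do not overlap for Psme4 1368817_at, Psmd7 and Psmb9, and CN array 4 is the highest CN value in 8 of the 9 panels.

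In the 19S base, 5 of 9 ATPase probe sets varied at 1 month, all with a lower mean in LP. Psmc6 gave 9.98, 9.96, 10.04 and 10.16 in CN and 9.89, 9.92, 9.78 and 10.02 in LP on probe set 1384323_at. The groups overlapped through LP array 4. The difference was -0.13 ± 0.065 (SE, pfp = 0.043, exact permutation p = 0.114), and this call was lost under quantile normalization and when any array except LP 4 was left out. A further varying probe set of Psmc6 differed by -0.079 without a call.

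Psmc2 read 11.706, 11.714, 11.694 and 11.782 in CN and 11.675, 11.662, 11.690 and 11.668 in LP. These narrow groups did not overlap, and the difference of -0.050 ± 0.020 (SE, exact permutation p = 0.0286) was not called (pfp = 0.058). Psmc1 and Psmc4 differed by -0.055 and -0.015 without a call, and Psmc3 and Psmc5 did not vary. Of the non-ATPase subunits, Psmd4, a ubiquitin receptor, read 9.78, 9.65, 9.61 and 9.83 in CN and 9.58, 9.65, 9.51 and 9.59 in LP. LP array 2 lay above CN array 3, and the other LP arrays lay below all CN arrays. The difference was -0.13 ± 0.058 (SE, pfp = 0.028, exact permutation p = 0.0571), and the call was lost when any of the CN arrays was left out.

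Psmd2, which docks ubiquitin shuttle proteins on the base, was the only varying member outside PA28 and the immunoproteasome with a higher mean in LP. It read 10.14, 9.89, 10.02 and 10.08 in CN and 10.06, 10.05, 10.30 and 9.88 in LP. LP array 3 was high and LP array 4 low, and the difference of 0.042 ± 0.10 (SE) was smaller than the spread in either group. It changed sign without LP 3 or CN 2. Psmd1, the other large scaffold of the base, did not vary.

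In the constitutive 20S core 4 of 15 probe sets varied at 1 month, against 12.8% of all probe sets, and none was called. Psma5 differed by -0.10 ± 0.071 (SE), with CN array 4 at 10.92 above 10.54 to 10.67 on the other 7 arrays. Psma6, Psmb3 and Psmb4 differed by -0.0089, -0.0095 and -0.0067, each less than its SE. Psmb3 spread as widely over the 8 arrays (SD 0.116) as Psmd7 1379322_at in the lid (SD 0.109), without the separation of groups seen there. Probe sets of Psma1, Psma2, Psma3, Psma4, Psma7, Psmb1 and Psmb2 and of the catalytic subunits Psmb5 and Psmb7 did not vary. The 4 assembly chaperones of the core (Psmg1 to Psmg4), the inhibitor Psmf1, and Psmd9 and Psmd10 among the assembly chaperones of the base also did not vary. Psmd5, a chaperone of the ATPase ring, differed by -0.11 ± 0.069 (SE) without a call, with CN 3 and CN 4 at 8.79 and 8.93 and the other 6 arrays between 8.61 and 8.66.

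Of the 6 probe sets that report the interferon-inducible Psmb8, Psmb9, Psmb10, Psme1 and Psme2, only that of Psmb9 was called at 1 month. The 4 that varied had higher means in LP with a median difference of 0.064, where 57.6% of all varying probe sets had a higher mean and the median was 0.017, and the other 2 were constant. Psmb9 read 7.23, 7.28, 7.07 and 7.28 in CN and 7.45, 7.37, 7.34 and 7.32 in LP. Every LP array lay above every CN array. The difference was 0.15 ± 0.055 (SE, 1.11-fold, pfp = 0.022, limma adjusted p = 0.636, exact permutation p = 0.0286), and the call was lost when any of the 4 LP arrays was left out, with differences from 0.11 to 0.18 over all single omissions.

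Psmb8 read 7.043, 7.039, 7.033 and 7.046 in CN and 7.065, 7.048, 7.061 and 7.066 in LP. The groups were again separate, though the difference of 0.020 ± 0.0048 (SE, exact permutation p = 0.0286) was small and not called. Psmb10 was constant at 7.46. Separate groups occurred in 3 of the 26 varying members with LP lower (Psme4, Psmd7 and Psmc2) and in 2 with LP higher (Psmb9 and Psmb8), against 2.49% and 5.41% of all varying probe sets.

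The subunits of PA28 overlapped between groups. Psme1 read 10.21, 10.20, 10.06 and 10.09 in CN and 10.19, 10.15, 10.29 and 10.21 in LP on its varying probe set (difference 0.073 ± 0.046, SE). Psme2 read 9.52, 9.39, 9.33 and 9.36 in CN and 9.52, 9.40, 9.54 and 9.37 in LP (difference 0.055 ± 0.059, SE). CN array 1 and LP arrays 1 and 3 were high for Psme2, and neither gene was called. The other probe set of Psme1 was constant at 6.32.

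Array by array, the 22 varying members outside PA28 and the immunoproteasome deviated from their mean over the 8 arrays by 0.040, -0.022, 0.026 and 0.16 in CN and by -0.093, -0.044, -0.047 and -0.020 in LP. CN array 4 stood high, while all varying probe sets of the array deviated by -0.00087 on it. With all arrays, 21 of these 22 had a lower mean in LP and their median difference was -0.087. Without CN 4 the numbers were 17 of 22 and -0.038, and over the other omissions 19 to 22 of 22 and -0.12 to -0.073. Without CN 4 only 2 members, both of Psme4, were called lower, and the same was true without CN 1. The share of all probe sets called lower also shrank, to 0.873% without CN 4 and 0.432% without CN 1.

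**Figure D3:**
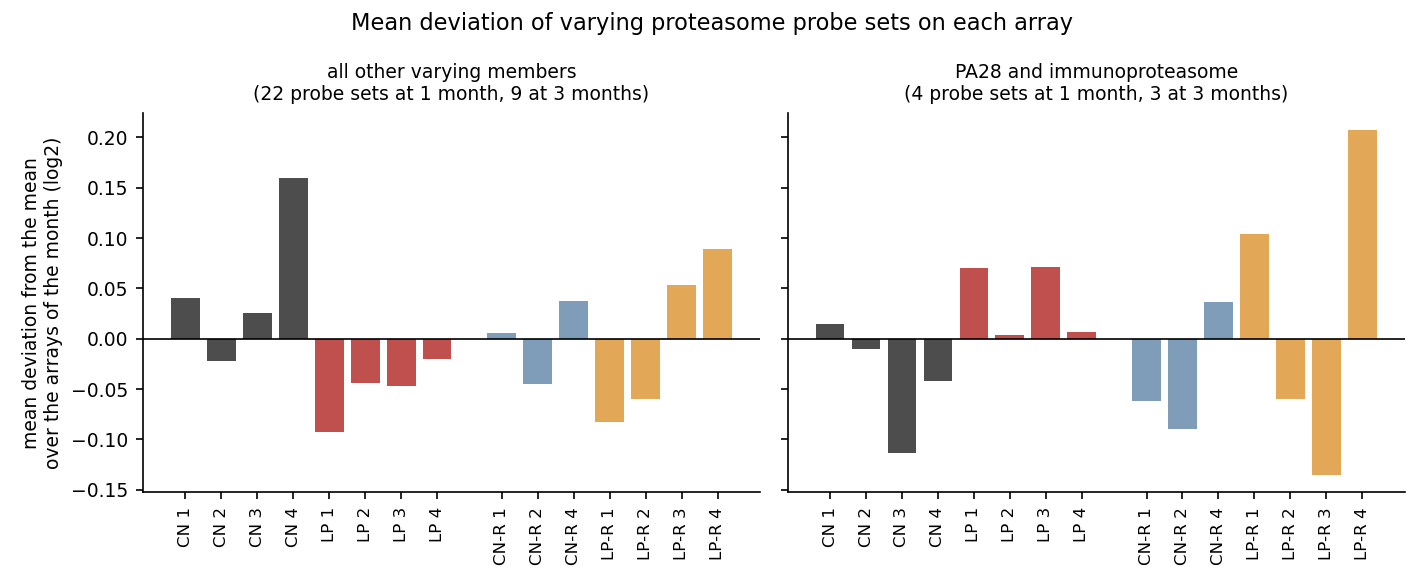
Mean deviation of varying proteasome probe sets from their mean over the arrays of the same age (log2, y axis) on each array (x axis), for all members other than PA28 and the immunoproteasome (left) and for those alone (right). At 1 month the left panel shows CN array 4 at 0.16 and all 4 LP arrays below 0. At 3 months the LP-R arrays lie on both sides of 0 in both panels.

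Genes that work with the proteasome were followed in lists. Of all 14217 singly named genes, 2.41% had a probe set called lower in LP and 2.57% one called higher, and the counts of the lists stand beside these shares. Of 13 measured parts and partners without a Psm symbol, Ecpas, which binds and remodels 26S proteasomes, was called lower on 1 of its 6 probe sets (-0.29 ± 0.084, SE, pfp = 0.0027). Its probe sets did not move together: 2 more that varied differed by -0.13 and 0.083 without a call, and the other 3, the brightest among them, were constant. Also called lower was the arsenite-inducible 19S partner Zfand2a (-0.15 ± 0.074, SE, pfp = 0.041), and none was called higher. Of 5 shuttle factors, Ddi2, the protease that activates the transcription factor Nfe2l1, was called lower on 1 of 2 probe sets (-0.11 ± 0.059, SE, pfp = 0.044). Of the 8 measured genes of p97 and its cofactors, the segregase Vcp (-0.085 ± 0.025, SE, pfp = 0.035) and Ubxn4, on 1 of 3 probe sets (-0.41 ± 0.15, SE, pfp = 0.00081), were called lower and none higher. None of the 9 transcription factors of proteasome genes and their processing enzymes was called, the smallest limma p being that of Keap1 (-0.12 ± 0.043, SE, adjusted p = 0.628). Of the ubiquitin genes and E1 enzymes 2 were measured and neither was called.

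On the antigen presentation side, both probe sets of B2m, the light chain of MHC class I, were called higher in LP (0.16 ± 0.039 and 0.16 ± 0.043, SE, pfp = 0.021 for each), and the chaperone Canx was called lower on 1 of 3 probe sets (-0.098 ± 0.044, SE, pfp = 0.041), of 8 genes measured. Of 12 interferon genes and induced factors, Irf7 (0.20 ± 0.077, SE, pfp = 0.020) and both probe sets of Ifit2 (0.16 ± 0.043 with pfp = 0.022 and 0.25 ± 0.068 with pfp = 0.0069, SE) were called higher. Mx2 was called lower on 1 of 2 probe sets (pfp = 0.032), with a difference of -0.28 ± 0.38 (SE) that was less than its SE. The mean log2 signal of the 12 genes, each by its brightest probe set, ran from 6.89 to 6.94 over the CN arrays and from 6.97 to 6.99 over the LP arrays. Of these 12 probe sets 5 varied, all 5 with a higher mean in LP, and the others were nearly constant. The Mx2 probe set called lower was not among them.

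Markers of other cells were read beside these values. Of 15 leukocyte markers measured, Lcp1 was called higher in LP (0.24 ± 0.050, SE, pfp = 0.0075), and the mean of the list ran from 6.90 to 6.93 in CN and from 6.92 to 6.96 in LP. Of 7 endothelial markers, Kdr (1 of 2 probe sets), Emcn and Tie1 were called higher, and the list ran from 8.27 to 8.35 in CN and from 8.37 to 8.53 in LP. Adipoq, of 6 adipocyte markers, was called higher (list means from 7.36 to 7.70 in CN and 7.38 to 7.87 in LP), and Col1a1 and Col1a2, of 6 fibroblast markers, were each called lower on 1 of 2 probe sets (list means from 11.35 to 11.65 in CN and 11.43 to 11.51 in LP). None of the 11 muscle fiber markers was called, with list means from 13.53 to 13.54 in CN and from 13.53 to 13.54 in LP. The part of these cells in the proteasome differences was not tested. In whole muscle, fewer cells of a type and less RNA per cell cannot be told apart.

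At 3 months no proteasome probe set was called in LP-R against CN-R in either direction. Of all probe sets, 0.171% were called lower and 0.345% higher. limma called none of the members either (smallest adjusted p 0.969), with 2 of 60 at an unadjusted p under 0.05, both nearly constant, against 5.04% of all probe sets. Of the 12 varying members, 4 had a lower and 8 a higher mean in LP-R, where 66% of all varying probe sets were lower. Their median difference was 0.0081, against -0.024 for all varying probe sets. No varying member had separate groups, against 3.32% of all varying probe sets with LP-R lower and 0.516% with LP-R higher.

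None of the 9 ATPase probe sets nor of the 3 probe sets of the other base subunits varied at 3 months, and 2 of 13 did in the lid. Probe sets called lower at 1 month were mostly constant at that age, namely those of Psmd7, Psmd4, Psmc6 and Psmd11 1376069_at, and Psme4 1368817_at read 10.27 on all 7 arrays. Psmd11 1374712_at read 10.72, 10.71 and 10.68 in CN-R and 10.64, 10.74, 10.68 and 10.68 in LP-R (difference -0.015 ± 0.026, SE). Psme4 1387345_at read 10.07, 10.01 and 10.05 in CN-R and 9.96, 9.96, 10.19 and 10.06 in LP-R (difference 0.0046 ± 0.064, SE), and 1368818_at differed by 0.053 ± 0.042 (SE). The groups overlapped for each of these.

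For several members the LP-R arrays spread widely around a small difference. Psmd14, the deubiquitinase of the lid, was constant on its brighter probe sets 1383429_at and 1394082_at, at 9.98 and 9.18. Its dimmest probe set, 1386073_at, read 6.92, 6.58 and 6.95 in CN-R and 6.17, 6.32, 7.32 and 7.36 in LP-R. LP-R arrays 1 and 2 lay below and 3 and 4 above all CN-R arrays, giving an SD of 0.637 around a difference of -0.026. Psmb7, the trypsin-like catalytic subunit, also had LP-R arrays 3 and 4 above the others, with 10.05, 9.91 and 10.06 in CN-R and 9.93, 9.95, 10.15 and 10.22 in LP-R (difference 0.057 ± 0.091, SE). Psma2, Psma5, Psmb4 and Psmg4 varied by differences of -0.057, 0.021, -0.034 and 0.0019, each with overlapping groups.

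The PA28 subunits followed another split at 3 months. Psme2 read 9.07, 9.14 and 9.39 in CN-R and 9.42, 9.15, 9.06 and 9.62 in LP-R, with LP-R 1, LP-R 4 and CN-R 4 high (difference 0.11 ± 0.16, SE). Psme1 read 10.09, 10.09 and 10.21 in CN-R and 10.28, 10.10, 10.02 and 10.43 in LP-R, high on the same 3 arrays (difference 0.077 ± 0.11, SE). Psmb8 read 6.96, 6.80 and 6.82 in CN-R and 6.91, 6.87, 6.82 and 6.88 in LP-R. Its highest value was on CN-R array 1, and the difference was 0.012 ± 0.047 (SE). Psmb9 and Psmb10 were constant. Psme2 was called higher without CN-R 4. With CN-R 4 counted as LP-R, as its treatment field reads, Psme1, Psme2, Psmb7 and Psmd14 (on 1386073_at) were called higher. These placements raised the share of all probe sets called higher to 0.477% and 1.07%.

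**Figure D4:**
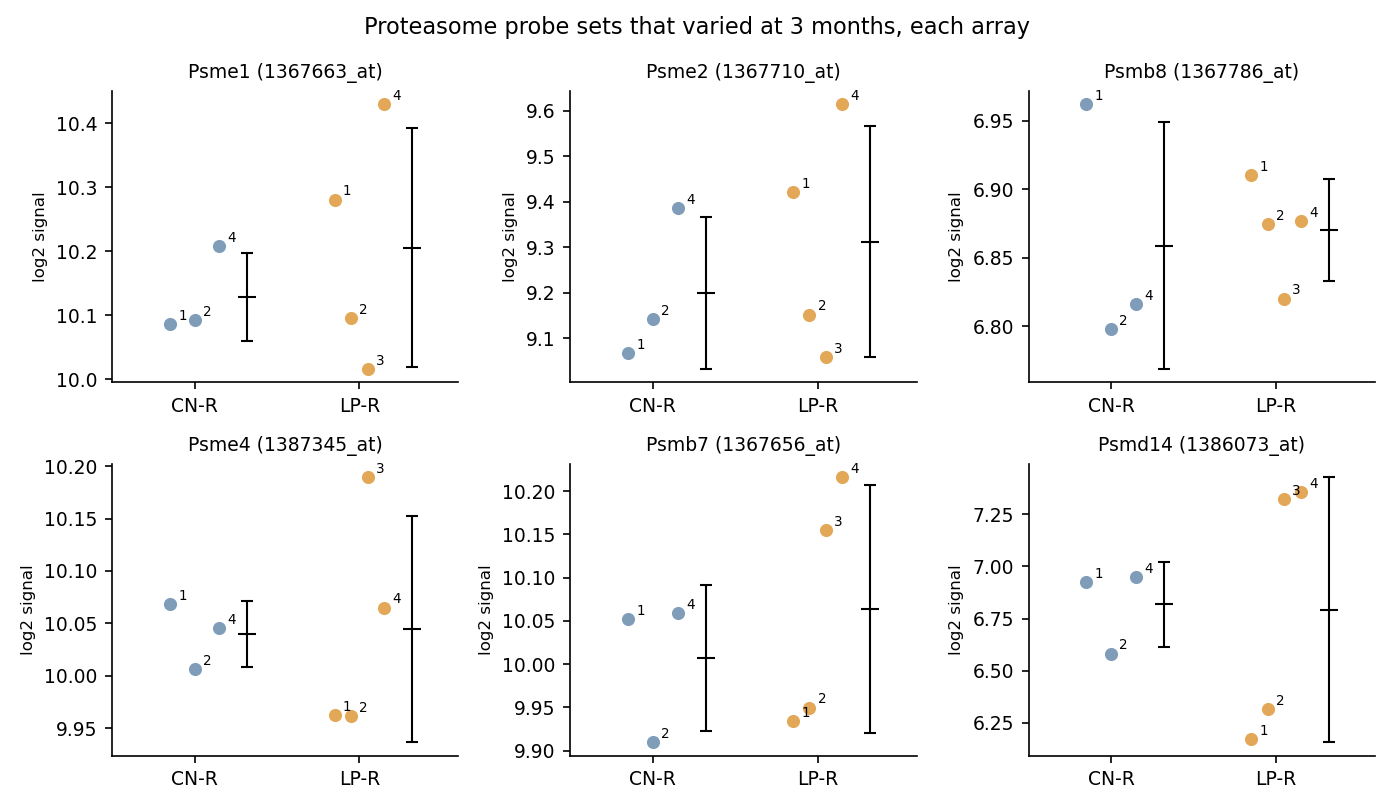
Log2 signal (y axis) on each CN-R and LP-R array (points, numbered by array) for 6 probe sets that varied at 3 months, with the group mean ± SD beside the points. The y axes differ between panels and do not start at 0. Groups overlap in every panel. For Psme1 and Psme2 the LP-R arrays split as 1 and 4 above 2 and 3. For Psmd14 1386073_at, Psmb7 and Psme4 1387345_at they split as 3 and 4 above 1 and 2. The Psmd14 and Psme4 probe sets not drawn lack this last split. LP-R array 4 is lowest on Psme4 1368818_at, and the others are nearly constant.

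At 3 months the lists around the proteasome were likewise mostly uncalled, beside 0.274% of all named genes called lower and 0.422% called higher. Irf7 was called higher (0.10, pfp = 0.047). Of the 6 interferon genes whose brightest probe set varied, 2 had a higher and 4 a lower mean in LP-R. Their median difference was -0.049, where 66% of all varying probe sets were lower. No gene of the partner, shuttle, ubiquitin, p97, transcription factor or antigen processing lists was called in either direction. Of the markers, Myh1 (2 of 5 probe sets) and Lyz2 were called higher and Cfd lower. The mean of the interferon list spread from 6.71 to 7.08 over CN-R and from 6.72 to 6.93 over LP-R arrays.

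The change under restriction was compared with the change after rebound by permuting group labels within each age (2450 relabelings, two-sided). Psmc2 (exact p = 0.00245), Psmd7 1379322_at (exact p = 0.0049), the 3 probe sets of Psme4 (exact p = 0.0151, 0.0171 and 0.0429), Psmd11 1376069_at (exact p = 0.0437) and Psmb9 (exact p = 0.0204) had the smallest values among varying members. These 7 of 30 members that varied at either age stand beside 9.22% of the 5001 varying probe sets with an unadjusted exact p under 0.05. After Benjamini-Hochberg adjustment of these exact permutation values over all probe sets no member passed (smallest adjusted p = 0.724). The smallest p these relabelings can give is 0.000408. Even with their p-values all at it, at least 254 of the 31042 probe sets would be needed before any could pass the adjustment. This test could thus hardly call a single gene and says little about whether the changes differed. Several of the members were constant at 3 months, so that their difference of changes was nearly the change at 1 month.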

How the data were processed

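RNA of rat gastrocnemius was hybridized to Affymetrix whole-genome rat expression arrays. The deposited values are log2 signals, normalized and summarized by the authors with FARMS in R (version not given in the sources used here). FARMS draws uninformative probe sets to a constant, so differences are compressed and a constant probe set does not show a constant transcript. Arrays have no read depth, and their number limits the precision. From the 15 arrays 57 control probe sets were removed. Probe sets were named from the platform annotation, with symbols updated through RefSeq: 20826 had 1 symbol, 436 several and 9780 none.

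Groups were taken from the sample titles. Rank products were computed over all array pairs, shuffling each array 100 times (seed 1, numpy 2.4.6, pandas 2.3.3), and differences, standard errors and adjusted p-values with limma 3.58.1 in R 4.3.3, both over all 31042 probe sets. On data simulated with known changes, rank products also called unchanged probe sets beyond their own estimate, and limma called few of the unchanged probe sets. Single probe sets were tested by exact permutation over arrays. Values on every array are given for members called, members whose groups did not overlap, the 5 varying members of smallest limma p in each direction, the PA28 and immunoproteasome members, Psmd11 and Psme4. From each list, called genes are named, and beside them at most the gene of smallest limma p. For a list's mean, the brightest probe set of each gene was used. Promoter motifs were searched on both strands of the RefSeq windows (first listed window of a gene, 27457 genes). Members and lists were chosen with earlier results of these data known. Alternatives were quantile normalization, median centring, bright or varying probe sets alone, the replicate number as a block, each array left out, another prior and all 4 groups in one fit.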

Additional observations from a re-analysis of the deposited data

How the results depend on the processing

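Of the results at 1 month, the 8 proteasome probe sets called lower became 4 among bright probe sets alone (1.52% of all those) and 0 among varying ones alone (0.503%), and 2 to 8 when 1 array was left out. The 1 called higher became 0 among bright and 0 among varying probe sets, and 0 to 1 when 1 array was left out. limma with all 4 groups in one fit called 1 member, Psme4, among 47 of all 31042 probe sets (0.151%). At 3 months the count of members called higher, 0 with all arrays, was 1 (Psme2) in the replicate block (0.151% of all probe sets), 4 with CN-R array 4 counted as LP-R (1.07%), and 0 to 1 when 1 array was left out. The median difference of varying members at 3 months became 0.063 under median centring, which raised all differences by about 0.055, and turned to -0.012 without CN-R array 2. Some small differences that passed no test changed sign. Psmd2 at 1 month ran from -0.035 to 0.11 over single omissions. At 3 months Psmb8 ran from -0.019 to 0.063 (-0.021 with CN-R 4 counted as LP-R), Psmd11 1374712_at from -0.033 to 0.00042 (0.041 under median centring), Psmd14 1386073_at from -0.22 to 0.18 (0.029 under median centring, 0.071 with CN-R 4 counted as LP-R), Psme4 1387345_at from -0.044 to 0.032 (-0.044 in the replicate block), Psma5 from -0.017 to 0.062 and Psmb4 from -0.073 to 0.0042 (0.021 under median centring). The cause was not tested. The titles number the arrays as biological replicates and do not say whether a number links arrays of different groups. The numbers were not taken as pairs because not every same-numbered pair of arrays correlated above 0.1. Deviations from the group means correlated by 0.551, -0.031, 0.165 and 0.401 at 1 month and by 0.044, 0.186 and 0.215 at 3 months over varying probe sets. Between arrays of different numbers the mean correlations were -0.091 and -0.050. Deviations cancel within a group, so these means largely follow from the same-number values and are no separate baseline. At 1 month 2 of 4 LP arrays, and at 3 months 2 of the 3 LP-R arrays with a CN-R array of their number, correlated best with their own number, so shared handling by number was not settled. With the number as a replicate block, 10 members were called lower at 1 month (1.6% of all probe sets), the added ones being Psma5 and Psmc2, and 1 was called higher. Rank products with 1000 permutations, or with values centred on each probe set, both chosen after seeing the data, gave 8 lower and 1 higher at 1 month and 0 at 3 months.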
